A study of Homo sapiens with 12 samples.

Results

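Transcripts of 10 genes that restrain MAP kinase signalling or are switched on early by it were followed in renal carcinoma cells with and without VHL, in medium with and without cystine. The genes were 6 dual-specificity phosphatases (DUSP1, DUSP3, DUSP4, DUSP5, DUSP6 and DUSP10), the inhibitor SPRY2, and the early response genes IER2, IER3 and PHLDA1. They were taken by name from 11963 measured genes, and all 10 had a value. The choice was made with earlier results of these data known, so their call rate may not be independent of it. The array carried 21 probe sets annotated to a single one of these genes. Where a gene had several, its brightest probe set by mean over all arrays gave its value.

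The cells were RCC4, an established renal cell carcinoma line that lacks working VHL, the subunit of a ubiquitin ligase that recognises hypoxia-inducible factors (HIF) and has them degraded. There were 4 groups of 3 arrays, namely VHL-reconstituted cells (VHL) in cystine-deprived DMEM, VHL cells in full DMEM, cells with an empty vector (Vec) in cystine-deprived DMEM, and Vec cells in full DMEM, each for 6 h. The deprived medium was made with 10% dialysed serum and the growth medium with 10% serum not described as dialysed, so loss of cystine and the change of serum cannot be told apart. There was 1 Vec line and 1 VHL line, and whether the VHL cells were a clone or a pool is not given in the sources used here. VHL itself and any other difference between these lines therefore cannot be told apart. The labels call the 3 arrays of a group biological replicates and do not say that they came from separate cultures, so p-values measure the spread between these samples, which may be technical.

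MAP kinase cascades pass signals from growth factor receptors and from stress to the kinases ERK, p38 and JNK. Dual-specificity phosphatases remove phosphate from both the threonine and the tyrosine that activate these kinases, and many of their genes are induced by the pathway that they dampen. Sprouty proteins act higher up, between receptor tyrosine kinases and ERK, and their genes are also induced by the signal. Levels of such transcripts are often read as a record of recent pathway output. Kinase activity was not measured here.

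Promoter sequence is shown for members from some of the patterns described below. DUSP1 and SPRY2 stand for genes far lower in VHL than in Vec cells, and DUSP6 for a gene that rose on deprivation in both lines. The sequences are the 250 bases before the annotated start in RefSeq, build GRCh38.p14, read 5′ to 3′ along the gene on the minus strand, at chr5:172771196-172771445 for DUSP1, chr13:80341127-80341376 for SPRY2 and chr12:89352502-89352751 for DUSP6. Capitals mark every match, on either strand, to 5 motifs. The core of the cyclic AMP response element was searched as TGACG, the AP-1 site as TGANTCA, the core bound by HIF as ACGTG, the amino acid response core as TGATGNAA, and TATAAA marks the TATA element.
DUSP1: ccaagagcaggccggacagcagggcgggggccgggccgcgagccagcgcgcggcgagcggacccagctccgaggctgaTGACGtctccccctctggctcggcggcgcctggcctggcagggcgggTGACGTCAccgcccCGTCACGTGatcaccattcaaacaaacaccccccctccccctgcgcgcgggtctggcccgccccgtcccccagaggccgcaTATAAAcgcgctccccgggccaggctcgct
SPRY2: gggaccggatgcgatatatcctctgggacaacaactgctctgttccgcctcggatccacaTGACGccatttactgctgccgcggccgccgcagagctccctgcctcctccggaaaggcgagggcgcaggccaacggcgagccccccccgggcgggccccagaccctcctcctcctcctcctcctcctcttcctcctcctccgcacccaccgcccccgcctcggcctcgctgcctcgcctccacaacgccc
DUSP6: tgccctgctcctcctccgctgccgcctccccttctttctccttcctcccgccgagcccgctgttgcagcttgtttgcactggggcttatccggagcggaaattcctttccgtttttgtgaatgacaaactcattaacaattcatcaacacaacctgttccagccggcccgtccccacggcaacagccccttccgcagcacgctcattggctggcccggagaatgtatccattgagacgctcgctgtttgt
DUSP1 held 4 matches to TGACG, 2 of which overlap in a full palindromic element 125 bases before the start. The match to TGACG 111 bases before the start overlaps 2 matches to ACGTG, which are both strands of the same palindrome, and the TATA element lay 30 bases before the start. SPRY2 held 1 match to TGACG, and DUSP6 held no match to these 5 motifs in this window. Promoters of 7 members were searched (DUSP1, DUSP3, DUSP6, DUSP10, SPRY2, IER2 and PHLDA1), and those of DUSP4, DUSP5 and IER3 were not. Of the 7, 4 held TGACG, against 21.2% of 35116 promoter windows of the same length, and 2 held ACGTG, against 18.5%. None of the 7 held TGANTCA (6.57% of all windows) or TGATGNAA (3.14%), and 1 held TATAAA (10.7%). A match is a run of letters and does not show that a factor binds.

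The 12 arrays had medians between 7.12 and 7.18 on the log2 scale. The single probe set for VHL was among the dimmest genes, below the 0.25 quantile of gene means at 5.95, with group means of 5.94 in VHL deprived, 5.99 in VHL control, 5.99 in Vec deprived and 5.85 in Vec control cells, and cannot check the lines. Of the other 6 genes in a short list of HIF targets, all 6 were lower in VHL than in Vec cells in both media (limma adjusted p under 0.05), for example ADM by -3.20 in deprived and -3.56 in control medium. Of 5 measured genes that mark amino acid shortage, all 5 rose on deprivation in each line. Markers of renal epithelium or of carcinoma lines (PAX8, PAX2, KRT8, KRT18 and VIM) had means over all arrays between 9.84 and 14.23, with VIM the highest. Of 4 blood cell markers 3, and of 4 endothelial markers all 4, lay below that quantile, while none of 3 fibroblast markers did.

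**Figure D1:**
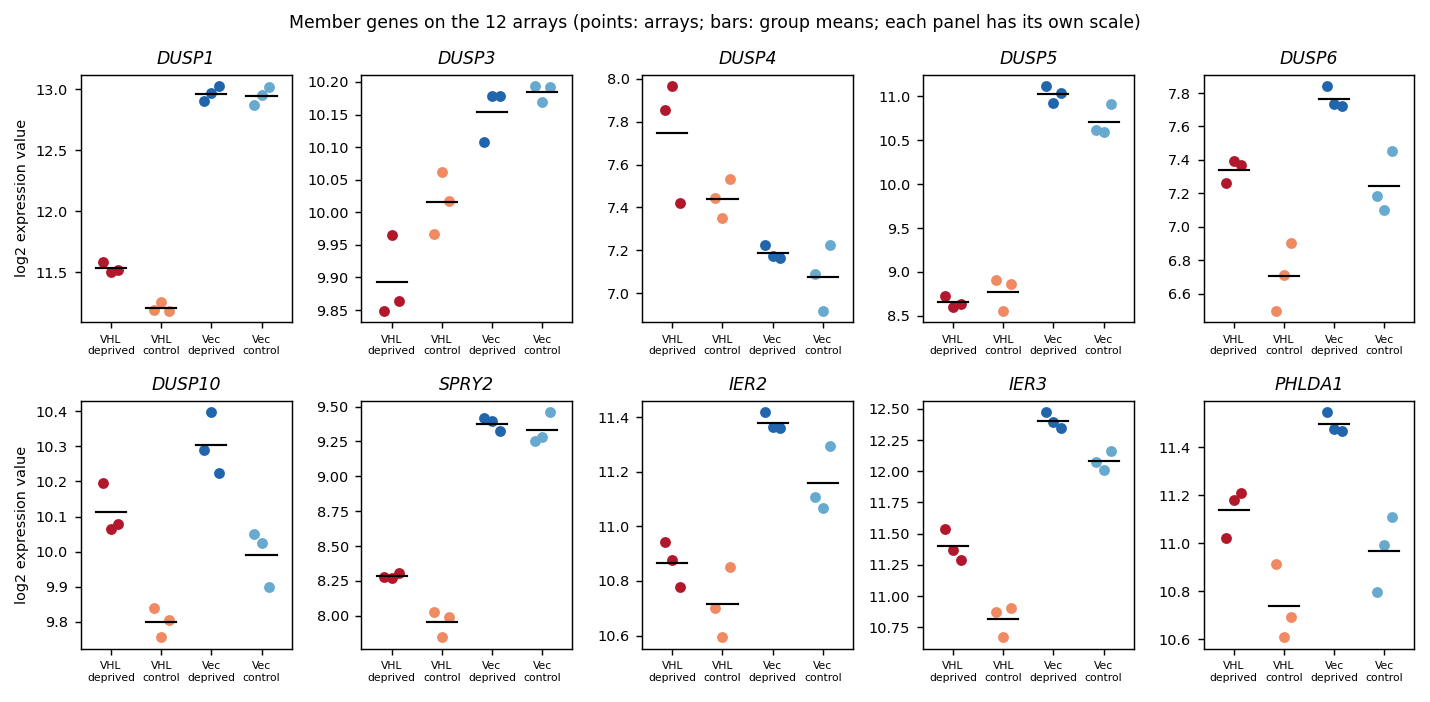
Log2 expression value of each member gene (vertical axis, own scale in every panel) on each array of the 4 groups (horizontal axis), with bars at the group means. All VHL arrays lay below all Vec arrays for DUSP1, DUSP3, DUSP5, SPRY2, IER2 and IER3. In both lines DUSP6, DUSP10, IER3 and PHLDA1 sat higher in deprived than in control medium without overlap.

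In VHL cells, 6 of the 10 genes were higher after 6 h in deprived than in control medium, and none was lower. DUSP6 and IER3 rose most, 1.56-fold and 1.49-fold, followed by PHLDA1 at 1.32-fold, and SPRY2, DUSP1 and DUSP10 rose 1.26-fold, 1.26-fold and 1.24-fold. In Vec cells 4 genes rose and none fell, PHLDA1 1.45-fold, DUSP6 1.43-fold, IER3 1.25-fold and DUSP10 1.24-fold. The 4 genes that rose in Vec cells were all among the 6 that rose in VHL cells. The call rate over the whole table was 11.6% for VHL cells (6.16% higher, 5.48% lower) and 4.18% for Vec cells (2.11% higher, 2.06% lower), at an adjusted p under 0.05 from limma with Benjamini-Hochberg adjustment over 11963 genes. The median log2 difference of the 10 members was 0.32 in VHL cells and 0.27 in Vec cells, and that of all genes was 0.01 in both.

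Among the phosphatases, DUSP6 is the cytoplasmic phosphatase specific for ERK. Its values were 7.26, 7.39 and 7.37 in VHL deprived cells, against 6.50, 6.71 and 6.90 in VHL control cells. In Vec cells they were 7.84, 7.73 and 7.72 in deprived medium, against 7.18, 7.10 and 7.45 in control medium. The deprived arrays lay above all control arrays in each line, and VHL deprived arrays overlapped with Vec control arrays. DUSP6 rose by 0.64 ± 0.10 on the log2 scale in VHL cells (SE, n = 3 per group, limma adjusted p = 0.00166) and by 0.52 ± 0.10 in Vec cells (limma adjusted p = 0.0127). The call in Vec cells was lost without any 1 of 3 arrays (Vec control replicates 1 and 2, Vec deprived replicate 1), at adjusted p-values from 0.0587 to 0.0592.

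DUSP10, which acts mainly on p38 and JNK, had values of 10.20, 10.06 and 10.08 in VHL deprived cells, against 9.84, 9.76 and 9.80 in VHL control cells. In Vec cells it had 10.29, 10.40 and 10.22 in deprived medium, against 10.05, 10.02 and 9.90 in control medium. The groups did not overlap in either line, and the differences were nearly equal, 0.31 ± 0.06 in VHL cells (limma adjusted p = 0.00560) and 0.31 ± 0.06 in Vec cells (limma adjusted p = 0.0119). In Vec cells the call was lost without Vec control replicate 3 (adjusted p = 0.0532) or Vec deprived replicate 2 (0.0553).

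DUSP1, a nuclear phosphatase for p38, JNK and ERK and itself an immediate early gene, was called in VHL cells only. It had 11.58, 11.51 and 11.52 in VHL deprived cells, against 11.19, 11.25 and 11.18 in VHL control cells, a rise of 0.33 ± 0.05 (limma adjusted p = 0.00170) with no overlap. In Vec cells it had 12.90, 12.96 and 13.03 in deprived medium, against 12.87, 12.95 and 13.01 in control medium. These groups overlapped, and the difference of 0.02 had a 95% interval from -0.09 to 0.13 (limma adjusted p = 0.907).

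The other 3 phosphatases were not called in either line. DUSP5, a nuclear phosphatase specific for ERK, had 11.12, 10.93 and 11.04 in Vec deprived cells, against 10.62, 10.59 and 10.91 in Vec control cells. Those groups did not overlap, but the difference of 0.32 ± 0.10 did not pass (limma adjusted p = 0.105) except without Vec control replicate 3 (0.42, adjusted p = 0.0412). In VHL cells DUSP5 had 8.73, 8.60 and 8.64 in deprived medium, against 8.91, 8.56 and 8.86 in control medium, overlapping groups with a difference of -0.12 (limma adjusted p = 0.492). DUSP4, a nuclear phosphatase close to DUSP1, gave 0.30 ± 0.12 in VHL cells (limma adjusted p = 0.114) and 0.11 ± 0.12 in Vec cells (0.712). VHL deprived replicate 3, at 7.42, lay apart from the other deprived arrays of that group, at 7.85 and 7.97, and without it DUSP4 was called at 0.47 (adjusted p = 0.00628). DUSP3, a small phosphatase that lacks the kinase-docking domain of the others, gave -0.12 ± 0.05 in VHL cells (limma adjusted p = 0.118) and -0.03 ± 0.05 in Vec cells (0.823).

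SPRY2, the Sprouty inhibitor of receptor tyrosine kinase signalling, had 8.28, 8.27 and 8.31 in VHL deprived cells, against 8.03, 7.85 and 7.99 in VHL control cells, a rise of 0.33 ± 0.06 (limma adjusted p = 0.00523) with no overlap. In Vec cells it had 9.42, 9.39 and 9.32 in deprived medium, against 9.25, 9.28 and 9.46 in control medium. The Vec groups overlapped, with a difference of 0.05 and a 95% interval from -0.09 to 0.18 (limma adjusted p = 0.789).

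IER3, an early response protein tied to cell survival and a substrate of ERK, had 11.54, 11.37 and 11.29 in VHL deprived cells, against 10.88, 10.67 and 10.91 in VHL control cells, a rise of 0.58 ± 0.08 (limma adjusted p = 4.18e-04). In Vec cells it had 12.47, 12.40 and 12.35 in deprived medium, against 12.08, 12.01 and 12.16 in control medium, a rise of 0.33 ± 0.08 (limma adjusted p = 0.0340). Neither pair of groups overlapped. The call in Vec cells was lost without any 1 of 5 of the 6 arrays, at adjusted p-values from 0.0622 to 0.127, and held only without Vec control replicate 3.

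PHLDA1, whose transcript follows ERK signalling in many cell types, had 11.02, 11.18 and 11.21 in VHL deprived cells, against 10.91, 10.61 and 10.69 in VHL control cells. In Vec cells it had 11.55, 11.47 and 11.47 in deprived medium, against 10.79, 10.99 and 11.11 in control medium. Deprived arrays lay above control arrays in both lines, with rises of 0.40 ± 0.09 in VHL cells (limma adjusted p = 0.0133) and 0.53 ± 0.09 in Vec cells (limma adjusted p = 0.00496). The VHL call was lost without VHL control replicate 2 (0.33, adjusted p = 0.0568), and the Vec call held without any single one of its arrays. IER2, a nuclear protein induced by growth factors, gave 0.15 ± 0.07 in VHL cells (limma adjusted p = 0.219) and 0.22 ± 0.07 in Vec cells (0.135), where its groups did not overlap.

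**Figure D2:**
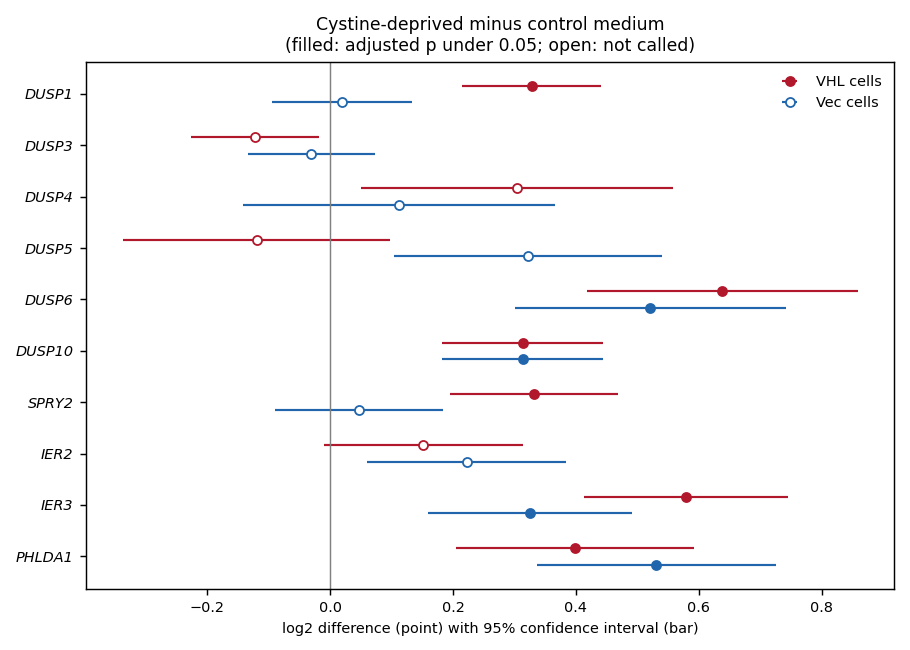
Log2 difference between cystine-deprived and control medium for each member gene (rows), in VHL cells (red, upper of each pair) and Vec cells (blue, lower), with 95% confidence intervals and 3 arrays per group. Filled points are called genes, 6 in VHL cells and 4 in Vec cells, and all of them lie above 0.

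In all, deprived and control arrays did not overlap for 7 members in VHL cells, where 30.6% of all genes did not overlap, and for 6 in Vec cells, where 22.7% did not. In VHL cells DUSP6 ranked 60 and IER3 ranked 76 by size among the 737 genes that rose. In Vec cells PHLDA1 ranked 57 and DUSP6 ranked 58 among 253.

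Whether the lines responded differently was tested as the VHL response minus the Vec response. None of the 10 genes was called in limma, against 0.134% of all genes, which is 16 of 11963 (0.125% higher, 0.00836% lower). At an unadjusted p under 0.05 there were 4 of the 10, and 1176 of all genes. DUSP1 gave 0.31 ± 0.07 (limma adjusted p = 0.195), SPRY2 0.28 ± 0.09 (0.328) and IER3 0.25 ± 0.11 (0.470), with the larger response in VHL cells, while DUSP5 gave -0.44 ± 0.14 (0.341). With a variance trend and robust moderation DUSP1 was called at the same size (adjusted p = 0.0187), when 45 genes were called in all. DUSP10 gave 0.00 with a 95% interval from -0.19 to 0.19. The rises of DUSP1 and SPRY2 in VHL cells are therefore not shown to differ from the responses in Vec cells.

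In deprived medium all 10 genes were called, 9 lower and 1 higher in VHL than in Vec cells, and in control medium 9 were called, 8 lower and 1 higher. DUSP5 was lowest relative to Vec cells, 5.18-fold lower in deprived and 3.82-fold lower in control medium. DUSP1 was 2.69-fold and 3.33-fold lower, SPRY2 2.13-fold and 2.60-fold, and IER3 2.01-fold and 2.40-fold, in the same order of media. DUSP4 went the other way, 1.47-fold higher in VHL cells in deprived medium and 1.29-fold higher in control medium. The lines differed at many genes, with 47.2% called in deprived medium (24.2% higher, 23.0% lower) and 46.1% in control medium (23.1% higher, 23.0% lower). The median log2 difference of the members was -0.47 in deprived and -0.49 in control medium, and that of all genes was 0.00 in both. In an RNA sample from a whole culture, fewer cells expressing a gene and less RNA per cell cannot be told apart.

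For DUSP5 the array values given above run from 8.60 to 8.73 in VHL deprived and from 8.56 to 8.91 in VHL control cells, and from 10.93 to 11.12 in Vec deprived and from 10.59 to 10.91 in Vec control cells. Every VHL array lay more than 1 log2 unit below every Vec array. The difference was -2.37 ± 0.10 in deprived medium (limma adjusted p = 6.40e-10) and -1.93 ± 0.10 in control medium (4.02e-09), which ranked 32 and 73 by size among the genes lower in VHL cells. DUSP1 gave -1.43 ± 0.05 in deprived (limma adjusted p = 1.77e-10) and -1.74 ± 0.05 in control medium (2.41e-11). SPRY2 gave -1.09 ± 0.06 (1.12e-08) and -1.38 ± 0.06 (1.36e-09), and IER3 -1.01 ± 0.08 (1.56e-07) and -1.26 ± 0.08 (1.87e-08), again in deprived and in control medium. For these 4 genes every call held without any single array.

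The other phosphatases differed less. DUSP6 gave -0.43 ± 0.10 in deprived (limma adjusted p = 0.00341) and -0.54 ± 0.10 in control medium (5.58e-04). DUSP3 had values of 9.85, 9.96 and 9.86 in VHL deprived cells, against 10.11, 10.18 and 10.18 in Vec deprived cells, a difference of -0.26 ± 0.05 (limma adjusted p = 4.55e-04). In control medium it gave -0.17 ± 0.05 (0.00986). Neither other DUSP3 probe set was called in control medium, at -0.10 and -0.13 (limma adjusted p = 0.209 and 0.206 over probe sets). In deprived medium the first of these was called, at -0.19 (0.0185), and the next was not, at -0.17 (0.108). DUSP10 gave -0.19 ± 0.06 in both media (limma adjusted p = 0.0188 deprived and 0.0190 control), and lost its call without any 1 of 3 of the 6 arrays in each medium (adjusted p from 0.0642 to 0.0904 in deprived and from 0.0615 to 0.0766 in control medium). Its second probe set was not called in either medium, at -0.13 in deprived (limma adjusted p = 0.0963 over probe sets) and -0.04 in control medium (0.642). With both probe sets averaged the control difference was -0.12 and not called (adjusted p = 0.0772).

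DUSP4 had 7.85, 7.97 and 7.42 in VHL deprived cells, against 7.22, 7.18 and 7.17 in Vec deprived cells, a difference of 0.56 ± 0.12 (limma adjusted p = 0.00135). In control medium it had 7.44, 7.35 and 7.53 in VHL cells, against 7.09, 6.92 and 7.22 in Vec cells, a difference of 0.36 ± 0.12 (limma adjusted p = 0.0204). The lines did not overlap in either medium, and the control call was lost without Vec control replicate 2 (adjusted p = 0.0907) or VHL control replicate 3 (0.0731).

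IER2 had 10.94, 10.88 and 10.78 in VHL deprived cells, against 11.42, 11.36 and 11.36 in Vec deprived cells, a difference of -0.51 ± 0.07 (limma adjusted p = 6.50e-05). In control medium it had 10.70, 10.59 and 10.85 in VHL cells, against 11.11, 11.07 and 11.30 in Vec cells, a difference of -0.44 ± 0.07 (2.39e-04). PHLDA1 was lower in VHL cells in deprived medium, by -0.36 ± 0.09 (limma adjusted p = 0.00446), and gave -0.23 ± 0.09 in control medium, where its groups overlapped and it was not called (0.0541). That value lay close to the threshold, and it was called without Vec control replicate 1 (-0.31, adjusted p = 0.0124) or VHL control replicate 1 (-0.32, 0.0101). Of the settings that kept all arrays, 4 also called it lower, namely quantile normalization (adjusted p = 0.0318), the filter on dim genes (0.0420), the variance trend with robust moderation (0.0488) and averaging of its probe sets (-0.31, 3.67e-04). All 4 other PHLDA1 probe sets were called lower in control medium, by -0.49, -0.17, -0.32 and -0.35. Groups did not overlap for all 10 members in deprived medium, against 54.2% of all genes, and for 9 in control medium, against 53.2%.

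**Figure D3:**
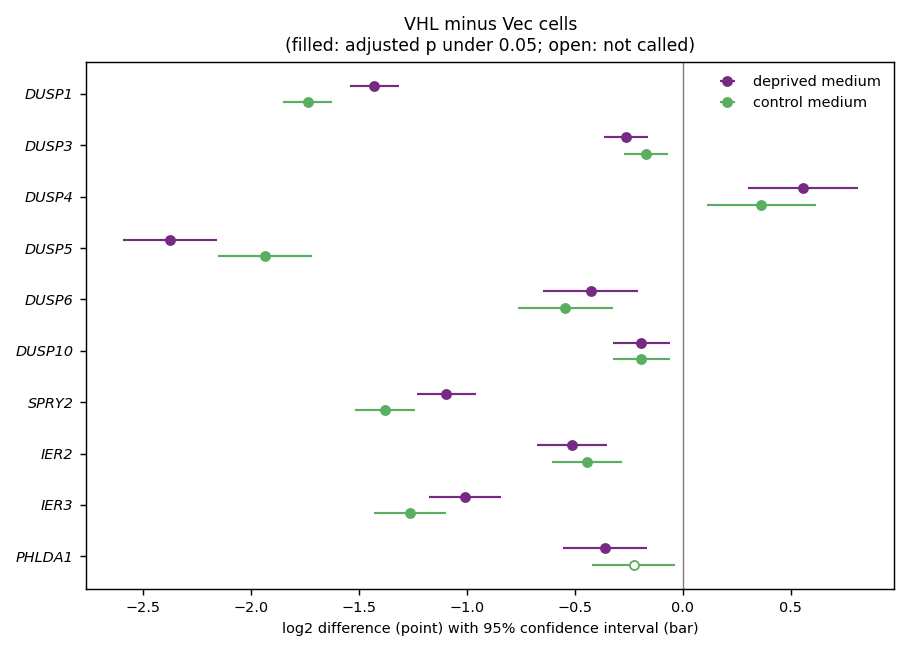
Log2 difference between VHL and Vec cells for each member gene (rows) in deprived medium (purple, upper of each pair) and control medium (green, lower), with 95% confidence intervals and 3 arrays per group. DUSP5, DUSP1, SPRY2 and IER3 lie at -1.01 or below, DUSP4 alone lies above 0, and the open point is PHLDA1 in control medium.

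The order of the 4 groups differed between genes. For DUSP1, SPRY2, IER2 and IER3 it ran from Vec deprived through Vec control and VHL deprived to VHL control cells, and the arrays of neighbouring groups overlapped between the Vec groups for DUSP1 and SPRY2 and between the VHL groups for IER2. For DUSP6, DUSP10 and PHLDA1 it ran from Vec deprived through VHL deprived and Vec control to VHL control cells. There VHL deprived and Vec control arrays overlapped for DUSP6 and PHLDA1, as did both control groups for PHLDA1. For DUSP4 both VHL groups came first and overlapped. DUSP5 had both Vec groups first, and its VHL groups overlapped. DUSP3 ran from Vec control through Vec deprived and VHL control to VHL deprived cells, and only its Vec groups overlapped among neighbours.

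Each of 6 members had more than 1 probe set, which allows the main value to be set beside others of the same gene. With every probe set as its own feature, 14 of 21 were called on deprivation in VHL cells, all higher, where 9.31% of 19064 probe sets were called, and 10 of 21 in Vec cells, all higher, where 3% were. Of the 11 other probe sets, 9 had the sign of the main one in VHL cells and 9 in Vec cells.

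All 3 probe sets of DUSP6 rose in both lines, by 0.56, 0.67 and 0.64 in VHL cells and by 0.37, 0.56 and 0.52 in Vec cells. All 5 of PHLDA1 rose in VHL cells and 4 did in Vec cells, the fifth giving 0.32 (limma adjusted p = 0.0513 over probe sets). The sizes differed. A second PHLDA1 probe set had 10.58, 10.43 and 10.48 in VHL deprived cells, against 9.80, 9.55 and 9.69 in VHL control cells. Its means in Vec cells were 10.96 in deprived medium, against 10.18 in control medium. Its rises of 0.81 in VHL cells (limma adjusted p = 5.54e-06 over probe sets) and 0.79 in Vec cells (1.47e-05) were larger than those of the main probe set and were not compared with them by a test. The second probe set of DUSP10 also rose in both lines, by 0.23 and 0.32 in VHL and Vec cells.

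DUSP1, DUSP3 and DUSP4 depended on the probe set. A second DUSP3 probe set gave 0.03 in VHL and 0.12 in Vec cells on deprivation, against -0.12 and -0.03 for the main one. The third gave -0.10 and -0.06, and no DUSP3 probe set was called on deprivation. The second DUSP1 probe set read a mean of 6.47 over all arrays and gave -0.14 in VHL cells and -0.15 in Vec cells, neither called. It was lower in VHL than in Vec cells, by -0.85 in deprived and -0.86 in control medium (limma adjusted p = 2.57e-05 and 2.38e-05 over probe sets), as the main one was. With the mean of both DUSP1 probe sets the deprivation response in VHL cells was 0.09 and not called (adjusted p = 0.491). The second DUSP4 probe set had 7.36, 7.37 and 7.28 in VHL deprived cells, against 6.95, 6.81 and 7.03 in VHL control cells, and rose by 0.41 (limma adjusted p = 0.00236 over probe sets). Of 14 refits with another setting or a left-out array, 3 called DUSP4 on deprivation in VHL cells, and 1 of these left out an array. The limma adjusted p over all 14 ran from 0.00240 to 0.325. Between the lines, 18 of 21 probe sets were called in deprived medium (2 higher, 16 lower, against 43.7% of probe sets called), and 17 in control medium (2 higher, 15 lower, against 43.0%), and all 11 other probe sets had the sign of the main one in each medium.

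**Figure D4:**
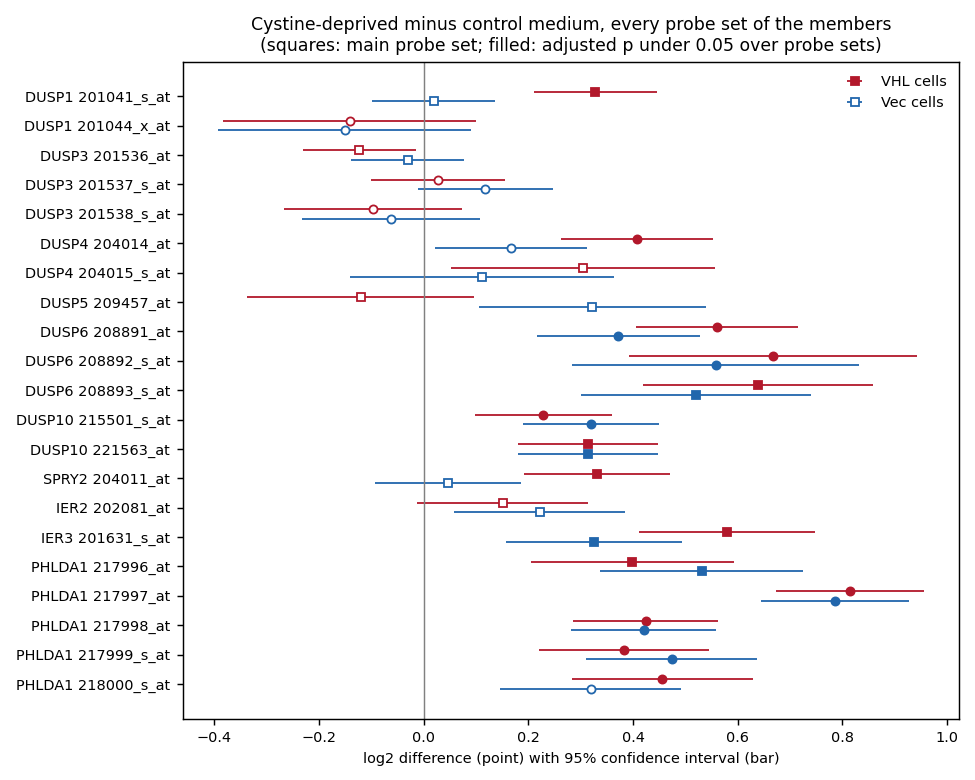
Log2 difference between deprived and control medium for all 21 probe sets of the members (rows), in VHL cells (red, upper) and Vec cells (blue, lower), with 95% confidence intervals and 3 arrays per group. Squares are the main probe sets, and the largest rises, 0.81 and 0.79, belong to a PHLDA1 probe set that is not the main one.

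Of 20 measured genes among 25 other MAP kinase phosphatases and feedback inhibitors, 1 rose and 2 fell in VHL cells, where 11.6% of all genes were called, and none was called in Vec cells by limma, where 4.18% of all genes were and 3 had an unadjusted p under 0.05. SOCS3, a feedback inhibitor of cytokine receptors, rose by 0.33 (limma adjusted p = 0.0229) in VHL cells. DUSP7, a cytoplasmic ERK phosphatase, changed by -0.54 (0.00905) and PHLDA2, a relative of PHLDA1, by -0.49 (0.00851). SPRY4 gave 0.09 in VHL and 0.29 in Vec cells, and SPRY1 0.28 and -0.01, none of them called. The list's median log2 difference was 0.05 in VHL and -0.03 in Vec cells.

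A list of 18 measured genes joined transcripts often used as a record of ERK output with ELK1, ELK3, SRF and CIC, transcription factors through which ERK acts. Against a call rate of 11.6% over all genes in VHL cells, 6 of these 18 rose there and none fell. They were ETV5, a transcription factor of the ETS family, at 0.67 (limma adjusted p = 1.36e-05), the ephrin receptor EPHA2 at 0.56 (3.27e-04), the transcription factors EGR1 at 0.56 (0.00100), MYC at 0.29 (0.00249) and JUNB at 0.32 (0.0229), and the AP-1 subunit FOSL1 at 0.39 (0.00254). In Vec cells, where 4.18% of all genes were called, 2 rose, ETV5 at 0.35 (limma adjusted p = 0.00474) and FOSL1 at 0.33 (0.0150). The list's median was 0.08 in VHL and 0.11 in Vec cells. FOS gave 0.02 in VHL and 0.13 in Vec cells and was not called. Of 27 measured genes of the cascade itself, which are not all receptors, adaptors or kinases, 1 rose and 1 fell in VHL cells. These were MAPK10 at 0.26 (limma adjusted p = 0.0216) and PTPN11 at -0.27 (0.0228). In Vec cells 1 fell, MAP3K5 at -0.33 (limma adjusted p = 0.049999). The shares of this list called, 7.41% in VHL and 3.7% in Vec cells, lay below those of all genes, 11.6% and 4.18%. None of these 65 genes was called for a difference between the responses in limma, against 0.134% of all genes. At an unadjusted p under 0.05 there were 12 of the 65, and 1176 of all 11963 genes.

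Between the lines, 13 of the 20 related phosphatases and inhibitors were called in deprived medium (4 higher, 9 lower in VHL cells) and 15 in control medium (4 higher, 11 lower). Beside this list and those that follow, 47.2% of all genes were called in deprived medium (24.2% higher, 23.0% lower). In control medium 46.1% were (23.1% higher, 23.0% lower). DUSP7 was lower in VHL cells by -1.86 in deprived and -1.65 in control medium (limma adjusted p = 1.75e-08 and 5.70e-08), and SPRY1 by -0.96 and -1.25 (1.05e-06 and 8.88e-08). LRIG1, a membrane inhibitor of EGFR signalling, was higher, by 0.83 and 0.59 (3.16e-06 and 7.15e-05), as was PPM1D, by 0.95 and 0.88 (7.86e-07 and 1.56e-06). Of the 18 genes for ERK output and its factors, 9 were lower and 4 higher in deprived and 10 lower and 2 higher in control medium. ELK1, ELK3 and SRF were among those lower in both media, and CIC was not called. CCND1, cyclin D1, gave -1.56 and -1.50 (limma adjusted p = 3.46e-09 and 4.83e-09), HBEGF, a ligand of EGFR, -1.53 and -1.55 (5.95e-08 and 5.65e-08), and MYC -0.71 and -0.81 (6.67e-08 and 1.82e-08), while ETV1, an ETS factor, gave 1.86 and 1.42 (4.98e-08 and 6.73e-07). Of the 27 cascade genes 19 were called in each medium, with 9 higher and 10 lower in deprived and 8 higher and 11 lower in control medium. MAP2K6, a kinase that activates p38, was higher in VHL cells by 1.33 and 1.27 (limma adjusted p = 5.37e-08 and 8.49e-08), and RPS6KA1, a kinase activated by ERK, by 0.73 and 0.85 (8.76e-07 and 2.09e-07). MAP2K1, a kinase that activates ERK, was lower, at -0.72 and -0.81 (2.79e-08 and 8.84e-09). Also lower were MAPK13, at -0.75 and -0.74 (limma adjusted p = 1.17e-08 and 1.42e-08), and RPS6KA3, at -0.74 and -0.56 (1.05e-07 and 1.57e-06).

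**Figure D5:**
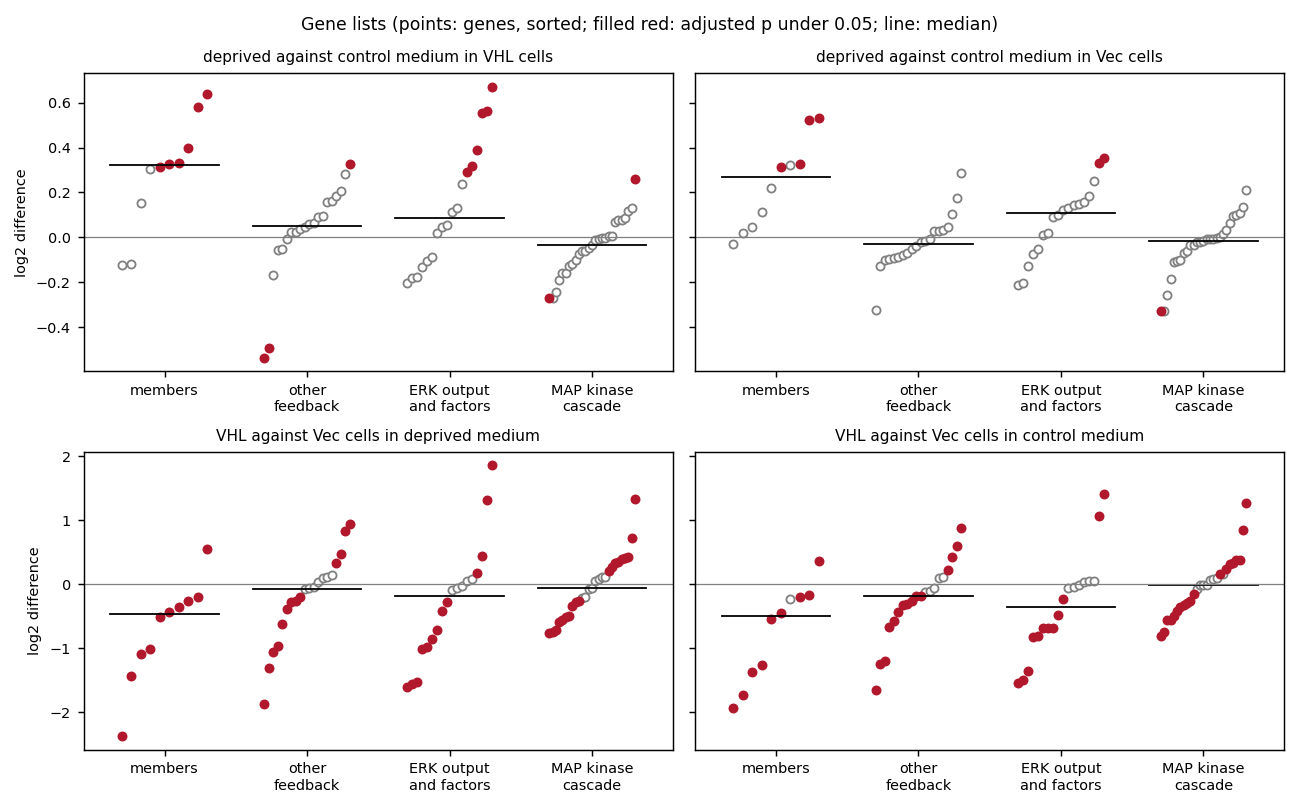
Log2 differences (vertical axis) of the 10 members, 20 related phosphatases and inhibitors, 18 genes for ERK output and its factors and 27 cascade genes (horizontal axis), in the 2 deprivation comparisons (top) and the 2 comparisons of the lines (bottom). Each point is a gene, red where called, and lines are medians, which for the members are 0.32 and 0.27 on deprivation and -0.47 and -0.49 between the lines.

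Genes whose values tracked each member most closely over the 12 arrays were taken as those with the highest Pearson r among 8962 genes that were not among the dimmest. These arrays share 2 lines and 2 media, whose differences r takes in together, and no p is given. DUSP1 was nearest to IRS2, an insulin receptor substrate (r = 0.997), SPRY2 to the scaffold AKAP12 (0.996), DUSP5 to the small GTPase GEM (0.998), and IER3 to PEX26 (0.996). DUSP6 was nearest to DXO (0.983), DUSP10 to CARS1, the cysteine tRNA synthetase (0.954), with TRIB3 next (0.954), and PHLDA1 to KDM7A (0.958). DUSP3 was nearest to SEC24C (0.979), DUSP4 to H2AJ (0.951) and IER2 to CDV3 (0.984).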

How the data were processed

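RNA was measured on 12 single-colour arrays. The deposited values are log2 expression values per probe set, a unit read from the values, and how the authors normalized them is not given in the sources used here. Per the labels, targets were made with a biotin label from total RNA extracted with a commercial kit. Values were used as deposited. Of 22215 probe sets 19064 named 1 gene, with symbols updated through RefSeq (GRCh38.p14), giving 11963 genes, and the brightest probe set by mean stood for each.

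In limma 3.58.1 under R 4.3.3 the model held 4 group means and all 12 arrays, leaving 8 degrees of freedom for the spread, or 12.7 once moderated. P-values are two-sided and adjusted by Benjamini-Hochberg over all genes, and a gene is called at an adjusted p under 0.05. Errors after ± are standard errors. The fit was tested on simulated data. All 10 members are named. From the lists of related genes up to 6 called genes per comparison, by adjusted p, and up to 3 others were eligible. Members and lists were chosen with earlier results of these data known. The number of arrays limits the precision.

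Residuals of arrays sharing a replicate number correlated between -0.268 and 0.235 over 18 pairs (median 0.053). Those of arrays with different numbers correlated between -0.350 and 0.291 over 36 pairs (median -0.018). As these ranges were alike, samples were treated as unpaired. Alternatives were quantile normalization, median centring, a filter on genes below the 0.25 quantile of means, averaging all probe sets per gene, dropping those with the suffix _x_at or _s_at, a variance trend with robust moderation, the compared groups only, the replicate block, and leaving out each array.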

Additional observations from a re-analysis of the deposited data

How the results depend on the processing

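The number of members called was within 1.5 times its main value under every alternative that kept all arrays, except for the difference between the responses, where a variance trend with robust moderation called 1 member (DUSP1) against 0. Leaving out single arrays gave 5 to 7 members called on deprivation in VHL cells (6 with all arrays), 2 to 4 in Vec cells (4), 0 for the difference between responses (0), 9 to 10 between the lines in deprived medium (10) and 7 to 10 in control medium (9). With the replicate number as a block the counts were 6, 4, 0, 10 and 9 in the same order, and the block changed no count of member calls. No member changed sign in either comparison of the lines, or on deprivation in VHL cells. On deprivation in Vec cells DUSP1 gave -0.066 and DUSP3 0.0081 when probe sets were averaged, and DUSP1 ranged from -0.017 to 0.054 when single arrays were left out. The difference between responses for DUSP10, near 0, was -0.025 with median centring, -0.045 with its probe sets averaged, and from -0.041 to 0.047 without single arrays. Fewer genes were called over the whole table once probe sets with the suffix _x_at or _s_at were dropped, 771 against 1392 on deprivation in VHL cells and 233 against 500 in Vec cells, and 3505 against 5650 and 3427 against 5520 between the lines in deprived and control medium, where fewer genes were tested, DUSP1 and IER3 among those without a value. With only the compared groups in the fit, 835 and 311 genes were called on deprivation in VHL and Vec cells, and with a variance trend and robust moderation 45 against 16 differed between the responses. Without single arrays 764 to 1302 and 253 to 303 genes were called on deprivation in VHL and Vec cells. Detection calls were not used, so dim probe sets, such as the second one of DUSP1, may read background.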
